A study of Mus musculus with 2 samples.

Results

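Melanosome and melanin synthesis genes were followed in B16F10 cells, a pigmented mouse melanoma line of C57BL/6 origin, after growth in lung or bone. The 10 genes were taken by symbol from the 32285 genes of the count matrix: the enzyme genes Tyr, Tyrp1 and Dct, the melanosome protein genes Pmel and Mlana, the transporter genes Slc45a2, Slc24a5 and Oca2, the transport adaptor gene Mlph and the receptor gene Gpr143. All 10 were detected in every group and had a level above the minimum of 10 CPM used for the comparisons. CPM are counts of UMIs, the molecular tags that stand for 1 captured transcript each, per 1000000 UMIs of the set.

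Living tumour cells (GFP+ CD45- DAPI-) were recovered by sorting from lungs of wild-type (WT) mice and from lungs and bones (knees) of Prf1-/- mice, tagged by source with 1 of 3 hashtag antibodies, pooled, and read as 1 RNA library and 1 hashtag library. Perforin, the product of Prf1, lets cytotoxic lymphocytes make pores in target cells, and the genotype is that of the host mouse, so all 3 sources carried the same tumour line. Digestion at 37 °C took 20 min for lung tumours and 30 min for knees, which were crushed first. The number, age and sex of the mice, and the time that the tumours grew, are not given in the sources used here, and each condition is 1 hashtag group, so no difference below has a replicate check and no test was possible. The intervals printed are 95% intervals for counting error only. Site, digestion time and hashtag go together in the bone comparisons and cannot be told apart. Host genotype and hashtag likewise go together in the comparison of the lung groups.

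The RNA matrix held 15961 barcodes and the hashtag matrix 6208, with 4204 in both. A minimum of 1000 genes and a maximum of 15% mitochondrial UMIs per barcode left 1227 cells from WT lung, 1520 from Prf1-/- lung and 385 from Prf1-/- bone, with medians of 2909, 2826.5 and 3107 UMIs per cell. A further 6270 cells (median 2418 UMIs) came from RNA barcodes that the hashtag matrix did not list. These unlisted barcodes have no known source and are described as a set of their own. The melanocyte markers were abundant in all 4 sets, with a summed level of 9592 to 12744 CPM. That list includes Pmel, Mlana, Dct, Tyrp1 and Tyr, which are themselves among the genes under study. Its sum thus largely restates the levels of these genes and is no separate check of cell identity. Of the other cell types checked, the lists for T and NK, B and plasma, neutrophil, endothelial and erythroid cells stayed below 5 CPM in each hashtag group. So did osteoblast and marrow stroma markers (1.54 CPM in bone, 4 of 5 at 0) and chondrocyte markers (all 3 at 0 in bone). Osteoclast markers summed to 12.3 CPM for bone cells, 20.3 for Prf1-/- lung cells and 18.6 for WT lung cells (1 of 3 at 0 in each). Over the hashtag groups, fibroblast markers were at 6.14 to 11.4, and monocyte, macrophage and dendritic markers at 4.62 to 20.4, highest in WT lung. In the unlisted barcodes fibroblast markers reached 36.2 CPM, osteoclast markers 22.8, monocyte, macrophage and dendritic markers 7.60 and erythroid markers 6.56. Schwann cell markers, of a related neural crest lineage, summed to 156 to 196 CPM over the 4 sets. The 12 alveolar and airway epithelial markers summed to 208 CPM in WT lung, 14.4 in Prf1-/- lung, 20.0 in bone and 31.8 in the unlisted barcodes, with 2, 4, 8 and 2 of the 12 at 0, and their part in the results was not tested beyond leaving out the barcodes that carried them.

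Melanin is made in melanosomes, organelles related to lysosomes that mature while Pmel fibrils form inside them and pigment is then laid down on the fibrils. Tyrosinase (Tyr) carries out the first steps from tyrosine, and Dct and Tyrp1 act on later intermediates of the black-brown pigment branch. Transporters and channels set the pH and ion content of the organelle, and the adaptor melanophilin (Mlph) links melanosomes to a myosin motor for movement along actin. Transcription of many of these genes in pigment cells is driven by Mitf, a basic helix-loop-helix factor that binds E-box motifs and, in pigment gene promoters, an extended form called the M-box.

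The promoters are shown because the 10 genes are known as a set under shared transcription factors, and their upstream sequence can be read beside their levels. RefSeq gives Pmel at chr10:128695888-128720238, Mlana at chr19:29697541-29708447, Dct at chr14:118012790-118052246, Tyrp1 at chr4:80834123-80851736 and Tyr at chr7:87424771-87493512 (mouse build GRCm38.p6, whole genes with exons and introns). Slc45a2 lies at chr15:11000721-11029233, Slc24a5 at chr2:125068127-125088677, Oca2 at chr7:56239593-56536518, Mlph at chr1:90915024-90951142 and Gpr143 at chrX:152781921-152808651 in the same build. Promoter windows were at hand for 6 of the 10 genes, and Pmel, Mlana, Slc45a2 and Gpr143 had no entry in the table used. The M-box core TCATGTG, searched on both strands (CACATGA is its reverse complement), was found in the 250 upstream bases of 4 of the 6 genes, against 3.25% of all 32851 windows. The stretches below run 5′ to 3′ on the gene's strand, with the motif in capitals.
Tyr, chr7:87493513-87493564, minus strand: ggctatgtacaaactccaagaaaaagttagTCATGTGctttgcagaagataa
Tyrp1, chr4:80834155-80834183, plus strand: tggggagggagTCATGTGctgcctagtag
Dct, chr14:118052361-118052427, minus strand: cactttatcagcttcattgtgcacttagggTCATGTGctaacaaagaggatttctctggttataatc
Dct, chr14:118052442-118052496, minus strand: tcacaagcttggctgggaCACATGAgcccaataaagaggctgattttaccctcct
Slc24a5, chr2:125068084-125068126, plus strand: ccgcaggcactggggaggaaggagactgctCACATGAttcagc
Mlph, chr1:90915041-90915068, plus strand: caggagtagccCACGTGatctgagccgc

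In these stretches the motif ended 16 bases before the listed start of Tyr, 41 before that of Tyrp1, 145 and 226 before that of Dct, 7 before that of Slc24a5 and 43 before that of Mlph. Dct was the gene with 2 copies, 1 on each strand. The longer M-box AGTCATGTGCT, read from the Tyr window as the core with 2 bases on each side, occurred in 7 of the 32851 windows (0.0213%), and those of Tyr and Tyrp1 were among them. Mlph carried instead the palindromic E-box CACGTG, found in 6.02% of upstream windows. The shorter CATGTG, which the core contains, was in 12.3% of upstream windows and in 5 of the 6 genes, Oca2 being the one added. The stretches of Tyrp1 and Mlph lie inside the span RefSeq annotates for the gene, so an earlier start is also annotated there. A match describes the letters only and is no evidence of binding.

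Levels in CPM were taken from the UMIs of a gene summed over the cells of a set. The assay counts transcript 3′ ends, so no gene length enters, although how well each 3′ end is captured can differ between genes. The 10 genes together held 13066 CPM in WT lung, 13375 in Prf1-/- lung, 10086 in bone and 11917 in the unlisted barcodes, or 1.31%, 1.34%, 1.01% and 1.19% of all UMIs. Pmel, Mlana, Dct and Tyrp1 supplied most of them in every set.

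**Figure D1:**
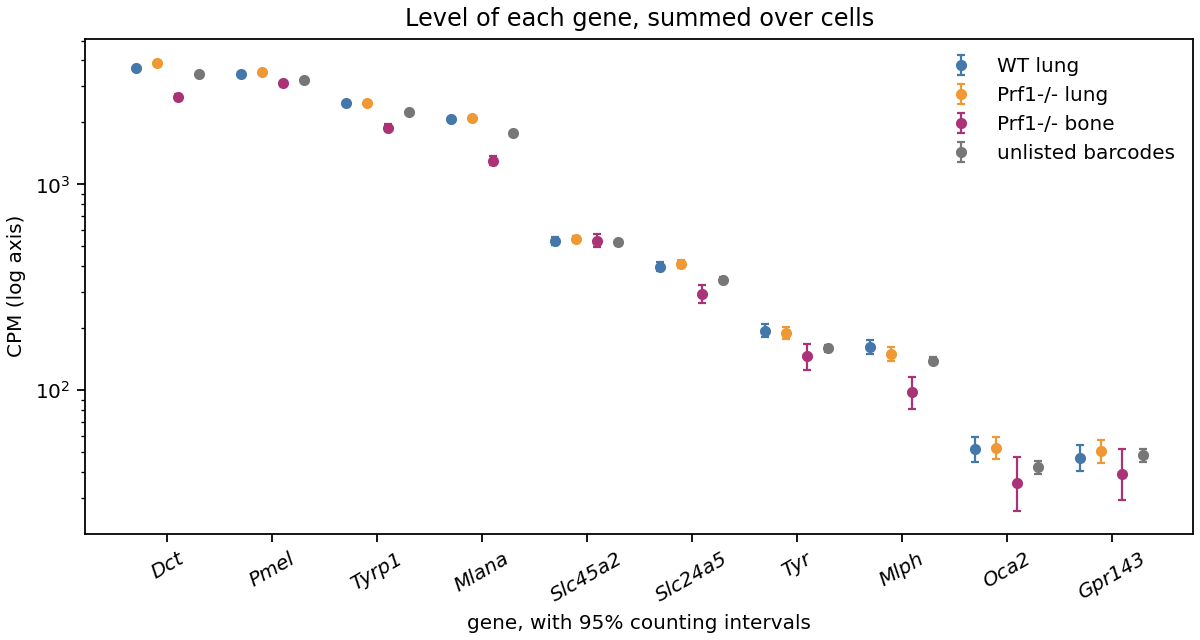
Level of each of the 10 genes in CPM (log axis) in WT lung, Prf1-/- lung, Prf1-/- bone and unlisted barcodes, with 95% counting intervals. Dct, Pmel, Tyrp1 and Mlana lie above 1000 in all 4 sets, Oca2 and Gpr143 between 35.4 and 52.7, and the bone points are the lowest for 9 of the 10 genes, Slc45a2 being the exception.

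Among the enzyme genes, Dct (ENSMUSG00000022129), which encodes dopachrome tautomerase, stood at 3666 CPM in WT lung (interval 3606 to 3727), 3899 in Prf1-/- lung (3843 to 3956), 2658 in bone (2570 to 2748) and 3420 in the unlisted barcodes (3392 to 3448). The intervals of the 4 sets did not overlap, and bone was the lowest. Tyrp1 (ENSMUSG00000005994), which encodes a tyrosinase-related enzyme that also stabilises tyrosinase, was at 2479 in WT lung, 2479.7 in Prf1-/- lung, 1885 in bone (1811 to 1962) and 2249 in the unlisted barcodes (2226 to 2272). The lung values of Tyrp1 were nearly equal and the bone interval lay below both. Tyr (ENSMUSG00000004651), the rate-limiting enzyme gene, was far lower on the same scale: 195 in WT lung (181 to 209), 189 in Prf1-/- lung (177 to 202), 146 in bone (126 to 168) and 160 in the unlisted barcodes (154 to 166). The bone interval of Tyr lay below those of both lung groups and overlapped that of the unlisted barcodes.

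Of the melanosome protein genes, Pmel (ENSMUSG00000025359), which encodes the fibril protein, was at 3451 CPM in WT lung (3392 to 3510), 3498 in Prf1-/- lung (3444 to 3551), 3093 in bone (2998 to 3190) and 3206 in the unlisted barcodes (3179 to 3234). Its bone level was below the lung groups by a small margin. Mlana (ENSMUSG00000024806), which encodes a melanosome membrane protein that associates with Pmel, was at 2084 in WT lung (2039 to 2130), 2104 in Prf1-/- lung (2062 to 2145), 1304 in bone (1242 to 1367) and 1784 in the unlisted barcodes (1764 to 1804). The lung intervals of Mlana overlapped, and bone stood well below every other set.

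The transporter genes lay below Dct, Pmel, Tyrp1 and Mlana in every set. Slc45a2 (ENSMUSG00000022243), which encodes a melanosomal transporter needed for normal pigmentation, was at 532, 543, 533 and 523 CPM in WT lung, Prf1-/- lung, bone and the unlisted barcodes. The 4 intervals of Slc45a2 overlapped, and no set stood apart. Slc24a5 (ENSMUSG00000035183), a cation exchanger gene, was at 398, 409, 294 (265 to 325) and 345 (336 to 354) in the same order. Oca2 (ENSMUSG00000030450), whose product sets chloride flow and pH in the melanosome, was at 51.7, 52.7, 35.4 (25.9 to 47.2) and 42.3. Bone was the lowest set for Slc24a5 and Oca2, although the bone interval of Oca2 overlapped that of every other set.

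Mlph (ENSMUSG00000026303) was at 162 CPM in WT lung (150.0 to 176), 150.0 in Prf1-/- lung (139 to 161), 97.7 in bone (81.5 to 116) and 139 in the unlisted barcodes. Its bone interval lay below all others. Gpr143 (ENSMUSG00000025333), which encodes a melanosomal G protein-coupled receptor, was at 47.1, 50.8, 39.2 and 48.4, with overlapping intervals.

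The order of the levels was Dct, Pmel, Tyrp1, Mlana, Slc45a2, Slc24a5, Tyr and Mlph, followed by Oca2 and Gpr143, in both lung groups. Neighbours in that order differed beyond counting error except Oca2 and Gpr143, whose ratio was 1.10 (0.894 to 1.35) in WT lung and 1.04 (0.865 to 1.24) in Prf1-/- lung. Bone put Pmel first: its level was 1.16 times that of Dct (1.11 to 1.22), whereas in Prf1-/- lung Dct was 1.11 times Pmel (1.09 to 1.14). Bone and the unlisted barcodes had Gpr143 above Oca2, by 1.11 (0.730 to 1.69) and 1.14 (1.03 to 1.27). As a share of the UMIs of the 10 genes, Pmel rose from 26.2% (25.8 to 26.5) in Prf1-/- lung to 30.7% (29.9 to 31.5) in bone and Slc45a2 from 4.06% (3.91 to 4.22) to 5.29% (4.91 to 5.68), whereas Mlana went from 15.7% (15.4 to 16.0) to 12.9% (12.4 to 13.5).

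The comparison of Prf1-/- lung with WT lung varied host genotype, together with the hashtag, at a fixed site. Ratios of the 10 levels lay between 0.923 (Mlph) and 1.08 (Gpr143), and none of the 10 genes was called, where a call needed a change of at least 1.5-fold whose interval did not contain 1. Of all 7748 genes tested, 1.76% were called. Dct was the gene whose interval left out 1, at 1.06 times the WT level (1.04 to 1.09). The summed level was 1.02 times that of WT lung (1.01 to 1.04), and the median log2 ratio of the 10 genes was 0.02, against 0.00 over all genes.

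In Prf1-/- bone against Prf1-/- lung, which varies the site in 1 host genotype, all 10 ratios were below 1, as were those of 4144 of all 7695 genes tested. The summed level was 0.754 of the lung level (0.740 to 0.768), or 1.33-fold lower. Mlana was called lower at 1.61-fold (ratio 0.620, 0.588 to 0.653) and Mlph at 1.53-fold (ratio 0.652, 0.535 to 0.788), so 2 of 10 were called lower, against 4.85% of 7695 genes called lower and 7.49% called in either direction. Just outside the 1.5-fold limit stood Oca2 at 0.672 (0.480 to 0.923) and Dct at 0.682 (0.657 to 0.707). Slc24a5 followed at 0.718 (0.642 to 0.802), Tyrp1 at 0.760 (0.728 to 0.794), Tyr at 0.772 (0.657 to 0.904) and Pmel at 0.884 (0.854 to 0.915), each with an interval below 1. Gpr143 at 0.773 (0.560 to 1.05) and Slc45a2 at 0.982 (0.901 to 1.07) had intervals that held 1. The median log2 ratio of the 10 genes was -0.44, against -0.03 over all genes. The Mlana call held under 16 of 19 alternative settings and the Mlph call under 13, so both calls depend on the setting. Some settings could not change a call. Removing the mitochondrial limit left the same 385 and 1520 cells, and all 10 genes already exceeded the level minimum. These counts are thus no tally of independent checks. Mlana was short of a call in cells with at least 2000 genes (0.708), in cells with no proliferation UMI (0.695) and under a 2-fold limit.

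**Figure D2:**
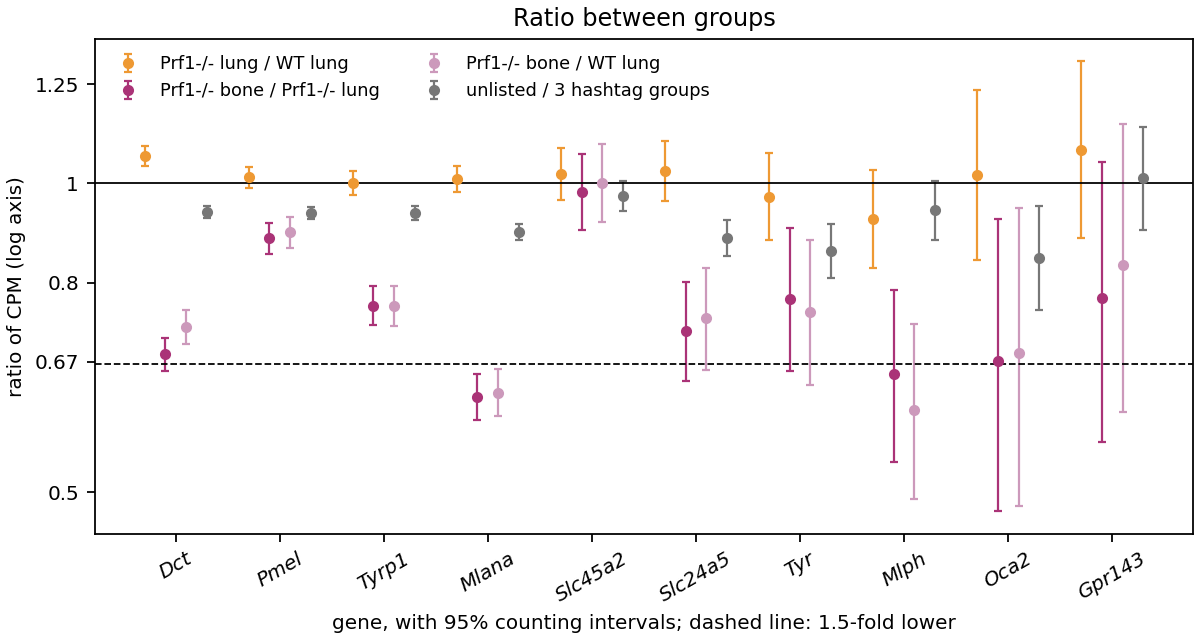
Ratio of CPM (log axis) for each gene in 4 comparisons, with 95% counting intervals, a solid line at 1 and a dashed line at 1.5-fold lower. The lung against lung ratios lie close to 1, and the bone ratios lie below 1 except that of Slc45a2 against WT lung, with Mlana at 0.620 and 0.626 and Mlph at 0.652 and 0.602 below the dashed line.

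Against WT lung, the bone level of Mlana was 0.626 (0.593 to 0.659) and that of Mlph 0.602 (0.493 to 0.729). These 2 of the 10 genes were called lower, against 5.29% of 7707 genes in that direction and 7.58% in either. The other values were 0.684 for Oca2, 0.725 for Dct, 0.739 for Slc24a5, 0.750 for Tyr, 0.760 for Tyrp1, 0.834 for Gpr143, 0.896 for Pmel and 1.00 for Slc45a2, and the summed level was 0.772 (0.757 to 0.787). This comparison changes site and host genotype together and shares the bone cells with the previous comparison, so it adds no independent support.

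The unlisted barcodes were compared with the 3 hashtag groups combined. None of the 10 genes was called, as were 0.297% of 7738 genes. Gpr143 was at 1.01 (0.902 to 1.14) and the other 9 were below 1, as were 3755 of all 7738 genes tested. The lowest were Oca2 at 0.846 (0.753 to 0.952) and Tyr at 0.860 (0.810 to 0.913). The summed level was 0.929 (0.923 to 0.936), and the median log2 ratio of the 10 genes was -0.10, against 0.00 over all genes.

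The share of cells with proliferation UMIs differed between sites, and pigment gene levels were lower in cells with more of them. At least 3 UMIs of a 27-gene proliferation list were present in 50.2% of WT lung cells, 48.9% of Prf1-/- lung cells, 65.2% of bone cells and 56.9% of unlisted cells. These counts were not adjusted for the depth of a cell. As summed CPM the list was at 2445 in WT lung, 2384 in Prf1-/- lung, 2763 in bone and 2695 in the unlisted barcodes. The summed level of the 10 genes was 15099 CPM in WT lung cells with no proliferation UMI, 14607 with 1 or 2, and 11752 with at least 3. The same series was 15039, 14220 and 12471 in Prf1-/- lung and 12107, 10943 and 9567 in bone. In all 3 groups the level was lowest in the cells with the most proliferation UMIs. Within these strata the ratio of bone to Prf1-/- lung was 0.805 (0.765 to 0.846), 0.770 (0.737 to 0.803) and 0.767 (0.749 to 0.785), so bone was lower at each proliferation level. Mlana was at 0.695 (0.600 to 0.802), 0.621 (0.548 to 0.701) and 0.608 (0.571 to 0.648) of the lung level, and Slc45a2 at 1.04, 1.02 and 0.981. In cells with no proliferation UMI, where bone had 52 cells, Mlana was short of a call. The 2 genes called lower there, against 2.47% of 7539 genes, were Slc24a5 at 0.663 (0.466 to 0.920) and Mlph at 0.304 (0.120 to 0.643), the latter from 7 bone UMIs. In cells with at least 3, Mlana was the 1 gene of the 10 called lower, against 3.73% of 7642 genes, and Mlph was at 0.724 (0.571 to 0.910), short of a call.

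Bone also held cells rich in Cck, the cholecystokinin gene, a split chosen after its values were seen. The 97 of 385 bone cells with at least 10 Cck UMIs had a Pmel level of 4259.9 CPM against 2688 in the rest, a ratio of 1.58 (1.48 to 1.69), with Mlana at 1.53 (1.38 to 1.69) and the summed level at 1.32 (1.27 to 1.37). Pmel was higher in such cells in the other sets too, by 1.30 in WT lung (24 cells), 1.38 in Prf1-/- lung (38 cells) and 1.38 in the unlisted barcodes (282 cells), each with an interval above 1, whereas Mlana in Prf1-/- lung was at 0.9499 (0.837 to 1.07). In cells with fewer than 10 Cck UMIs, 6 of the 10 genes were called lower in bone than in Prf1-/- lung, against 4.92% of 7668 genes: Mlana at 0.545 (0.511 to 0.580), Gpr143 at 0.557 (0.359 to 0.831), Oca2 at 0.632 (0.423 to 0.917), Tyr at 0.642 (0.525 to 0.779), Dct at 0.660 (0.633 to 0.689) and Slc24a5 at 0.663 (0.580 to 0.755). Pmel in these cells was at 0.777 (0.745 to 0.810), Mlph at 0.686 (0.550 to 0.848) and Slc45a2 at 0.955 (0.866 to 1.05). The summed level was then 0.697 of that in Prf1-/- lung. The Cck-rich bone cells thus brought the bone levels of these genes, other than Mlph, nearer to those of lung. Between Cck-rich and other bone cells, Slc45a2 at 1.12 (0.945 to 1.33) and Oca2 at 1.26 (0.622 to 2.43) lay within counting error. Dct was higher in Cck-rich bone cells (1.11, 1.03 to 1.19). It was lower in those of Prf1-/- lung (0.814, 0.737 to 0.897) and the unlisted barcodes (0.836, 0.802 to 0.872), and at 1.01 (0.895 to 1.13) in WT lung.

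Each percentile of the share per cell given below was lowest in bone, but the lower level was not even over its cells. The Cck-rich bone cells held 12304 CPM of the 10 genes, against 9316 in the other bone cells and 13375 in Prf1-/- lung. The median cell gave 1.26% of its UMIs to the 10 genes in WT lung, 1.32% in Prf1-/- lung, 1.01% in bone and 1.14% in the unlisted barcodes. The 5th to 95th percentile range was 0.503% to 2.32% in WT lung, 0.555% to 2.36% in Prf1-/- lung, 0.369% to 1.81% in bone and 0.447% to 2.17% in the unlisted barcodes, so the sets overlapped widely. Cells below 0.5% made up 4.97% (3.82 to 6.34) of WT lung cells, 3.42% (2.57 to 4.46) of Prf1-/- lung cells, 11.4% (8.43 to 15.04) of bone cells and 6.81% (6.20 to 7.46) of unlisted cells. With every cell thinned to 1500 UMIs, which left out 1 Prf1-/- lung cell and 6 unlisted cells, these shares were 5.70%, 4.34%, 14.5% and 7.82%.

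**Figure D3:**
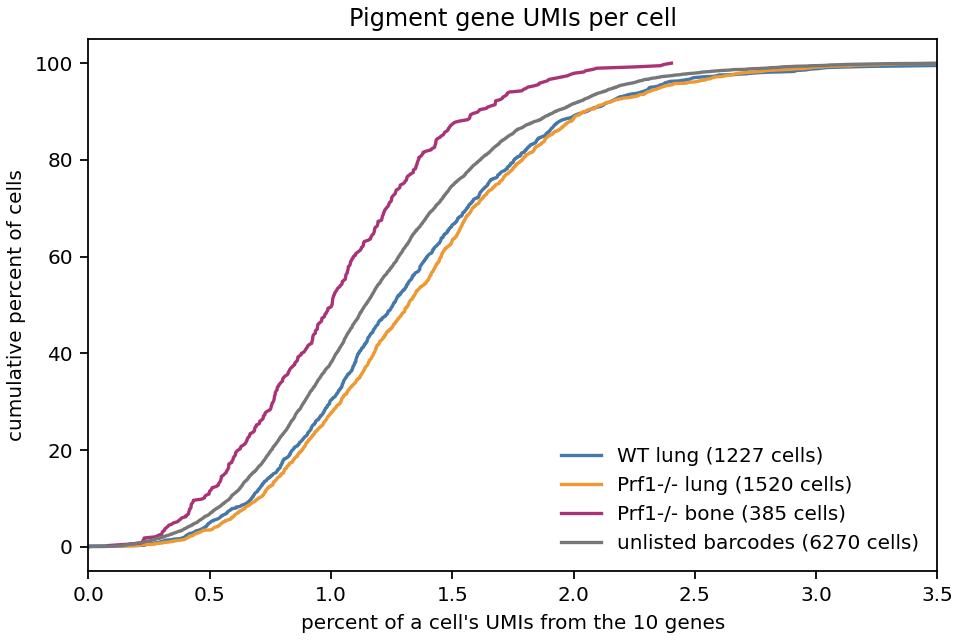
Cumulative percent of cells against the percent of a cell's UMIs that came from the 10 genes, for the 4 sets (axis drawn to 3.5%). The bone curve lies to the left of the others over most of its range, with its median at 1.01% against 1.26% and 1.32% in the lung groups, and it ends at 2.40%.

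Detection per cell followed the levels. Before thinning, Dct had a UMI in 99.0% to 99.6% of cells of the hashtag groups, Pmel in 98.4% to 99.2%, Tyrp1 in 95.1% to 97.6% and Mlana in 91.4% to 95.1%. Tyr had a UMI in 42.3% of WT lung cells, 42.2% of Prf1-/- lung cells and 35.8% of bone cells. At 1500 UMIs per cell the shares for Tyr were 24.0%, 25.2% and 20.8%, those for Mlana 86.0%, 86.5% and 74.5%, and those for Mlph 21.2%, 20.8% and 13.8%. Mlana and Mlph thus kept the lower share in bone at equal depth.

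As a reference for UMIs of these genes outside pigment cells, 43 barcodes rich in epithelial markers were taken, of which 6 passed the cell filter. Epithelial cells of the lung do not make melanin. The median depth of the 43 was 765 UMIs, against 2556 in the cells described here. Pmel had a UMI in 39.5% of these barcodes and Dct in 34.9%, against 98.2% and 99.3% of cells. Mlana and Tyrp1 each had a UMI in 27.9% of them, Slc45a2 in 20.9%, Slc24a5 in 14.0%, and Mlph and Gpr143 in 4.65% each. Tyr and Oca2 had none in the 43, against 35.5% and 11.5% of cells. A count of 0 allows a share of up to 6.98% (3 of the 43), and the upper exact Clopper-Pearson bound is 8.22%. The UMIs of the 10 genes were uneven among the 43: 22 had none, the median was 0, and the 3 barcodes with the most held 46.1% of the 232 UMIs. Pooled, the summed level was 0.427 (0.373 to 0.485) of that in cells, with 0.722 (0.608 to 0.852) in the 6 that passed the cell filter, all of which had such UMIs, and 0.261 (0.210 to 0.321) in the other 37. The pooled value was thus carried by part of the barcodes and is not read as an even background, and its source was not tested. Pooled in the same way, Pmel, Dct, Tyrp1, Mlana and Tyr were lower in CPM in these barcodes than in cells beyond counting error. For Slc45a2, Slc24a5, Oca2, Mlph and Gpr143, with 0 to 14 UMIs in the 43 barcodes, the interval of the ratio held 1.

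The ratio of variance to mean stood well above 1 for the abundant genes only, but its excess over 1 grows with the mean. At 1500 UMIs per cell the variance divided by the mean, which is 1 for pure counting, was 2.47 to 2.55 for Pmel over the 4 sets, 2.16 to 2.58 for Mlana, 1.64 to 2.27 for Dct and 1.51 to 1.86 for Tyrp1. For the other 6 genes it was 0.946 to 1.28, with Slc24a5 the highest of them. Mlana varied most among the abundant genes relative to its mean, with a coefficient of variation beyond counting of 0.669 to 0.786, against 0.398 to 0.474 for Dct. In WT lung that coefficient was 0.592 for Tyr, 0.605 for Mlph and 0.625 for Slc24a5, against 0.484 for Tyrp1 and 0.553 for Pmel. Slc45a2 was at 0.407 and Gpr143 at 0.108 there, and Oca2 had no excess. The sparse genes are thus not shown to vary less from cell to cell.

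Correlation from cell to cell was taken as Pearson's r of log2(count + 1) at 1500 UMIs per cell, over 1227, 1519, 385 and 6264 cells. All cells share 1 library and its free RNA, cells are not replicates, and the values are descriptions. The highest of the 45 pairs on average was Pmel with Tyrp1, at 0.269 in WT lung, 0.267 in Prf1-/- lung, 0.271 in bone and 0.273 in the unlisted barcodes. That pair was nearly the same in every set. Pmel with Dct was at 0.258, 0.226, 0.216 and 0.268, and Pmel with Mlana at 0.175, 0.201, 0.290 and 0.237. Mlana with Dct was higher in WT lung (0.253) and the unlisted barcodes (0.250) than in Prf1-/- lung (0.152) and bone (0.137).

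**Figure D4:**
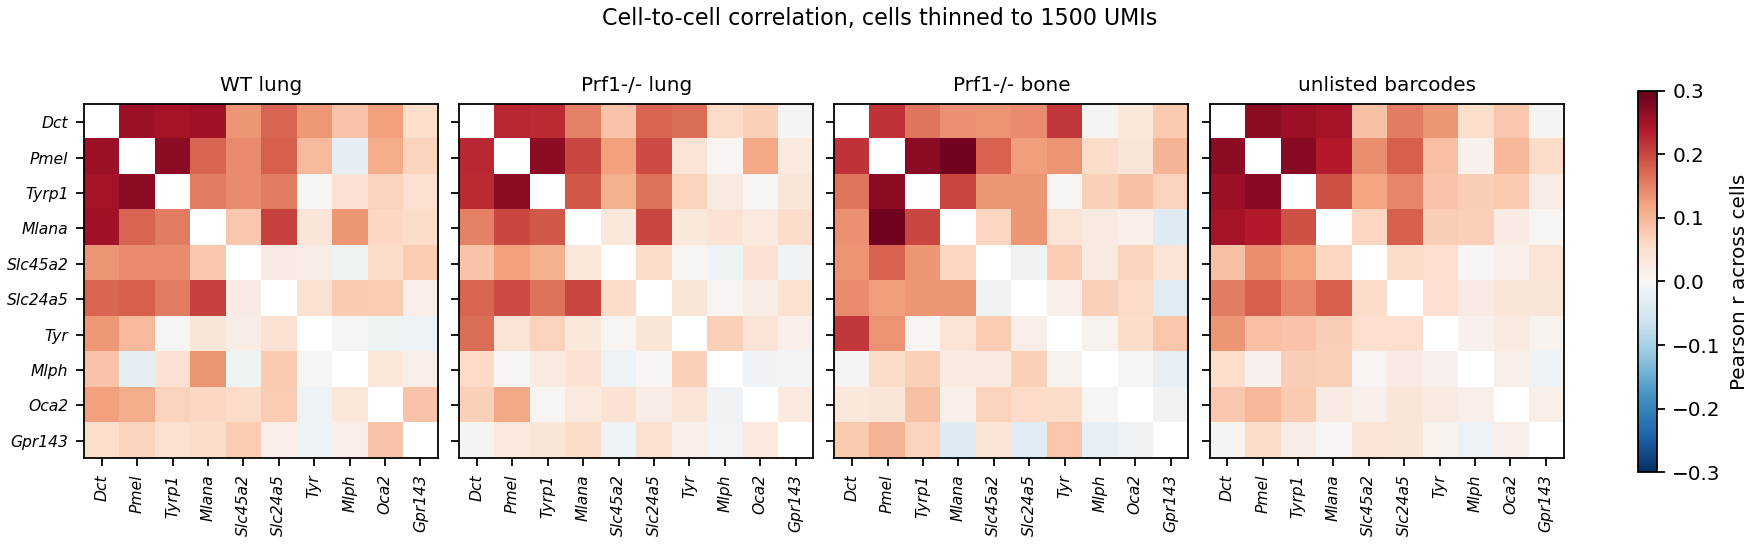
Pearson correlation between each pair of the 10 genes across cells thinned to 1500 UMIs, 1 square per set, with genes ordered by level and the colour scale running from -0.3 to 0.3. The 6 pairs of Dct, Pmel, Tyrp1 and Mlana are the highest averaged over the sets, with Pmel and Tyrp1 at 0.267 to 0.273, although in bone Dct with Tyr (0.211) lies above Dct with Tyrp1 (0.160) and Mlana with Dct (0.137), and the pale rows of Mlph, Oca2 and Gpr143 lie near 0.

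The 6 pairs among the 4 abundant genes had median correlations of 0.251 in WT lung, 0.213 in Prf1-/- lung, 0.208 in bone and 0.254 in the unlisted barcodes. Pairs of all genes with at least 1 UMI per thinned cell, of which there were 215 to 221, had medians of 0.00601 to 0.0106 and 99th percentiles of 0.149 to 0.167. Subtracting the variance expected from counting, for genes with at least 0.5 UMI per cell, changed the order of the pairs. Tyrp1 with Slc45a2 then had the highest average, at 0.741 (0.399 to 1.21 over the 4 sets), followed by Pmel with Slc45a2 at 0.669 (0.440 to 1.08), both with a bone value above 1, which no true correlation can reach. Slc24a5, which met the minimum outside bone, averaged 0.578 with Tyrp1, 0.571 with Mlana, 0.546 with Pmel and 0.528 with Dct. Among the abundant genes, Pmel with Tyrp1 averaged 0.508, Dct with Tyrp1 0.505, Pmel with Dct 0.396 and Pmel with Mlana 0.385. Without that subtraction, the median over all 45 pairs was 0.0758, 0.0444, 0.0690 and 0.0639, and 41, 41, 40 and 44 of the 45 were above 0. Most pairs that include a sparse gene were weak and are not read as findings.

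Without the subtraction, Slc24a5 was on average the less abundant gene that went most with the abundant ones. Its correlation with Mlana averaged 0.180 (0.133 to 0.206 over the 4 sets), that with Pmel 0.170 and that with Dct 0.162. Tyr correlated with Dct at an average of 0.160 (0.130 to 0.211). Mlph, which was called lower in bone beside Mlana, correlated with the mean of the other 9 genes at 0.0448 to 0.0877, and Gpr143 at 0.0444 to 0.0989. Dct (0.317 to 0.384) and Pmel (0.327 to 0.363) had the highest such values in the lung groups and the unlisted barcodes, and in bone Pmel (0.382) and Tyrp1 (0.302) stood above Dct (0.299).

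Sorting cells by their Mlana count showed the same relation in UMIs. In the unlisted barcodes, the largest set, the mean Pmel count at 1500 UMIs went from 3.63 in the 1082 cells with no Mlana UMI to 4.70 in the 2483 with 1 or 2, 5.20 in the 1906 with 3 to 5 and 6.22 in the 793 with 6 or more. Dct went from 4.12 to 6.96 between the first and last class, Tyrp1 from 2.86 to 4.34 and Slc24a5 from 0.360 to 0.847. In bone Pmel went from 3.69 in 98 cells to 5.60 in the 85 cells with 3 to 5 Mlana UMIs, and to 7.42 in the last class, which held 19 cells. Bone cells with 1 or 2 Mlana UMIs had a mean Dct count of 4.08 against 5.72 in Prf1-/- lung cells of that class, so Dct was lower in bone also among cells of like Mlana count, whereas Pmel was at 4.57 and 4.83.

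**Figure D5:**
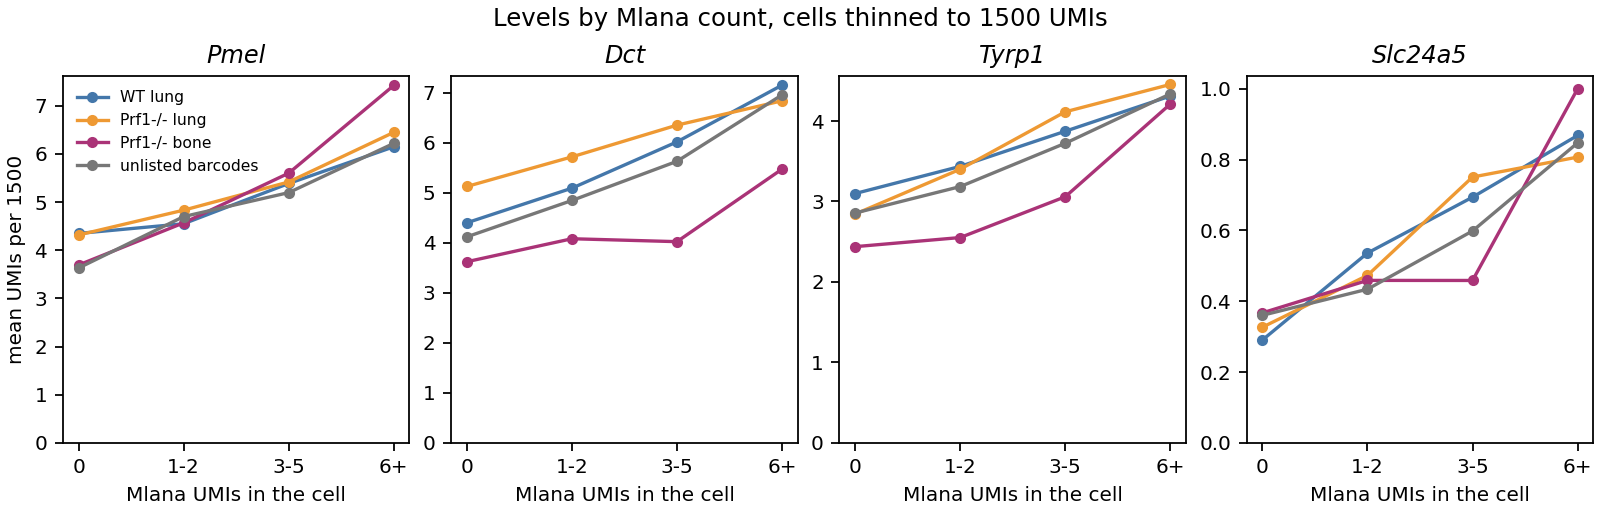
Mean UMIs of Pmel, Dct, Tyrp1 and Slc24a5 per 1500 UMIs in cells with 0, 1 to 2, 3 to 5 and 6 or more Mlana UMIs, with 1 line per set. Each gene is higher in the last class than in the first in every set, the bone line lies lowest for Dct and Tyrp1, and the last bone class holds 19 cells.

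A member score, the mean of the 10 standardised values in a cell, was set beside other properties of the cells. It correlated with the mitochondrial share of UMIs at 0.268 in WT lung, 0.168 in Prf1-/- lung, 0.0467 in bone and 0.282 in the unlisted barcodes. Of the 10 genes, Dct had the highest such value in WT lung (0.362), Prf1-/- lung (0.311) and the unlisted barcodes (0.359). In bone Dct was at 0.0304, below Gpr143 (0.135), Slc45a2 (0.119) and Tyr (0.0529). The score correlated with the ribosomal protein share at -0.235, -0.165, -0.269 and -0.226, with the proliferation count at -0.220, -0.193, -0.169 and -0.214, and with the depth before thinning at -0.0884, -0.0812, -0.0394 and -0.0641. The part of these properties in the correlations between members was not tested.

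Of 2208 other genes, those most like the 10 by correlation with the member score, averaged over the 4 sets, were Mgll (0.362), which encodes monoacylglycerol lipase, and Ptgds (0.262), which encodes a prostaglandin D synthase. Next came Atp6v0c (0.218), a subunit of the vacuolar proton pump, Trpm1 (0.197), a cation channel of melanocytes, and S100a1 (0.182), a calcium-binding protein. They were followed by the proton pump subunit genes Atp6v0b (0.169) and Atp6v1g1 (0.164), by Bace2 (0.165), a protease that processes Pmel, by Myo5a (0.160), the myosin that binds melanophilin, and by Cyb5a (0.156), a cytochrome. The lowest values were those of Tmsb4x (-0.164), H2afz (-0.154), Hspb1 (-0.152), Rhox5 (-0.144) and Hmgb2 (-0.140). All 2208 genes had a median of -0.00 and 5th and 95th percentiles of -0.059 and 0.069.

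These neighbours were chosen by correlation within each set, on the same cells as the contrast between sites. The unlisted barcodes have no known source and could hold cells of both sites. The choice is thus not shown to be free of that contrast. All 10 of the most alike had a ratio below 1 in bone against Prf1-/- lung, as did 4144 of all 7695 genes tested. Of the 10, 2 were called lower, against 4.85% of all genes: S100a1 at 0.498 (0.439 to 0.564) and Myo5a at 0.655 (0.554 to 0.771). The CPM of Mgll were 730.3 for bone cells, 1011 for Prf1-/- lung cells and 1202 for WT lung cells, a ratio of 0.722 (0.673 to 0.774) between bone and Prf1-/- lung. Of the 5 least alike none was below 1 and 3 were called higher, Rhox5 at 1.78 (1.66 to 1.90), Tmsb4x at 1.67 (1.52 to 1.83) and Hmgb2, also on the proliferation list, at 1.504 (1.34 to 1.69), against 2.64% of genes called higher.

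Other genes of the pigment pathway were read from 5 lists. In Prf1-/- lung against WT lung none of their genes was called. In bone against Prf1-/- lung, where 4.85% of all genes were called lower, 1 of 5 measured genes for lineage transcription factors and receptors was lower and none higher: Tfap2a, an AP-2 factor of the neural crest lineage, at 0.597 (0.394 to 0.876). All 5 had ratios below 1, with a median log2 ratio of -0.37. The CPM of Mitf were 393 for bone cells, 441 for Prf1-/- lung cells and 457 for WT lung cells. The ratio of bone to Prf1-/- lung was 0.892 (0.808 to 0.983) for Mitf, with Pax3 at 0.772 (0.684 to 0.868), Sox10 at 0.839 (0.696 to 1.01) and the melanocortin receptor gene Mc1r at 0.722 (0.557 to 0.925). The Mitf level across cells correlated with the member score at 0.103 on average, rank 42 of the 2208 genes. The other measured genes of this list were lower: Pax3 at 0.0616 (rank 129), Mc1r at 0.0553 (rank 153) and Sox10 at -0.0156 (rank 1494). Tfap2a, too sparse to be ranked, was at -0.0004.

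For melanosome biogenesis and cargo sorting, 1 of 30 measured genes was called lower, Hps4 of a lysosome-related organelle complex at 0.466 (0.215 to 0.904), none was higher, and the median log2 ratio was -0.10. Gpnmb, a Pmel-related glycoprotein gene, was at 0.729 (0.687 to 0.773), whereas the tetraspanin gene Cd63 at 1.01 (0.968 to 1.06) and the lipid carrier gene Apoe at 1.04 (0.993 to 1.08) had intervals that held 1. Dtnbp1 on that list went the other way, at 1.24 (1.09 to 1.42), short of a call, and 21 of the 30 had ratios below 1. For melanosome transport 1 of 7 was lower, Myo5a, with a median of -0.06. Rab27a, the small GTPase that recruits melanophilin, was at 0.699 (0.522 to 0.925). Of the 7, 4 had ratios below 1, and Sytl2 at 1.18 (0.969 to 1.43), Rab17 at 1.08 (0.592 to 1.89) and Dynll1 at 1.05 (0.977 to 1.13) were above it. For ion, metal and solute handling none of 9 was called in either direction, with a median of -0.13, and 8 had ratios below 1. Atp7a, a copper pump that supplies tyrosinase, was the lowest of them at 0.693 (0.498 to 0.946). Slc31a1 at 1.10 (0.863 to 1.38), Atox1 at 0.948 (0.852 to 1.05) and Trpm1 at 0.909 (0.815 to 1.01) had intervals that held 1.

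Of 13 other pigment cell genes measured, 2 were called lower and none higher, with a median log2 ratio of -0.33. They were Enho at 0.592 (0.516 to 0.678), which encodes a secreted peptide, and Rragd at 0.400 (0.242 to 0.629), which encodes a GTPase of lysosomal nutrient sensing. Mif, a cytokine gene on that list, went the other way, at 1.34 (1.28 to 1.40), short of a call.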

How the data were processed

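The authors deposited UMI counts in 2 matrices, for genes and for 3 hashtags. The submitters' processing notes list mm10, Seurat 4.3.0 and Cell Ranger 6.1.2, whereas Cell Ranger 6.0.0 stands in the file header. Other upstream steps are not given in the sources used here. A barcode was given to the hashtag with the largest count where that was at least 2 times the second, which removed barcodes with 2 strong hashtags (242 passing cells had no call). Doublets within 1 hashtag and in unlisted barcodes were not screened, and no doublet caller was run. UMIs were summed per set and divided by the set's total: 3865546 in WT lung, 4726709 in Prf1-/- lung, 1299480 in bone and 16458141 in the unlisted barcodes. Levels have exact Poisson intervals, ratios exact conditional binomial intervals and shares exact Clopper-Pearson intervals, at 95%. UMIs of cells in 1 library are not independent samples of a condition. Genes whose level averaged 10 CPM or more in the compared sets were held against the 1.5-fold limit. Thinning used 1 random draw per cell to 1500 UMIs with a fixed seed. Median log2 ratios used a pseudocount of 1 CPM.

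All 10 members are named. Of each of the 5 pathway lists, up to 4 genes with the most UMIs and up to 2 with the largest and 2 with the smallest bone ratio could be named. Of the other genes, the 10 highest and 5 lowest correlations with the member score were named, over genes with at least 0.1 UMI per thinned cell that are not mitochondrial, ribosomal protein or unnamed genes. The members and lists were chosen with earlier results of these data known. Epithelial reference barcodes had at least 10 UMIs and 1% of UMIs from the 12-gene epithelial list and at least 300 genes. Promoter windows and gene positions are from RefSeq tables of GRCm38.p6. The interval and correlation steps were tested on simulated counts. For the intervals these were pure counting draws of summed UMIs, without spread between cells. That test therefore cannot show how the intervals behave under the spread seen between cells here. Python 3.11.15, numpy 2.4.6, scipy 1.17.1, pandas 2.3.3 and matplotlib 3.10.9 were used, with R 4.3.3 and Seurat 5.3.0 for the alternative hashtag calls.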

Additional observations from a re-analysis of the deposited data

How the results depend on the processing

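Each comparison was recomputed under up to 19 alternatives: other gene and mitochondrial filters, other hashtag rules, other scalings, no level minimum, a 2-fold limit, without cells of high weight or other types, within proliferation strata, and, added after seeing the data, in cells with under 10 Cck UMIs. No called ratio changed direction. In both the lung comparison and that of the unlisted barcodes, 0 members were called under all 19. Removing the mitochondrial limit or the level minimum could not change a member call in any comparison. The shares in brackets below are those of all tested genes called in either direction. In bone against Prf1-/- lung, 2 members were called. The number was 1 with at least 2000 genes (4.79%), namely Tyr, with 47 bone cells against 145. It was 1 in cells with at least 3 proliferation UMIs (5.99%), 0 at 2-fold (2.38%) and 6 with under 10 Cck UMIs (7.45%). Some other settings, such as the Seurat hashtag calls, gave 3 (7.52%). The ratio of the summed level ran from 0.697 to 0.805. In bone against WT lung, 2 were called. The number was 1 with at least 3 proliferation UMIs (5.60%), 0 at 2-fold (2.04%) and 5 with under 10 Cck UMIs (7.59%). With at least 2000 genes 3 were called (4.86%), namely Tyr, Oca2 and Mlph, so Mlana lost its call there. The Seurat hashtag calls (7.71%) and the cells with no proliferation UMI (5.65%) also gave 3. Apart from the 2-fold limit, which is stricter by construction, the cause was not tested. The median pairwise correlation, 0.0633 on average over the 4 sets, was 0.0772 in cells with no proliferation UMI, 0.0929 at 2500 UMIs, 0.0959 without thinning and 0.477 with counting variance subtracted, which covers only members with at least 0.5 UMI per cell and gave a value above 1 (1.21) in bone. No paired analysis was possible because each condition is 1 hashtag group, and for the same reason no replicate could be left out. The depth limits Oca2 and Gpr143 most, with 46 and 51 UMIs in bone.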
